A study of Mus musculus with 8 samples.

Results

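The gene set described here holds 10 of the 20660 genes named on the arrays: the Toll-like receptors Tlr1, Tlr2, Tlr3, Tlr4, Tlr6, Tlr7 and Tlr9, the co-receptors Cd14 and Ly96, and the adaptor Myd88. The members are taken by gene name, with earlier results of these data known, and each was read from the probe with the highest mean signal among the non-control probes for its transcript. The 10 genes had 11 probes, Tlr7 alone having 2. RNA came from LSK cells, which are sorted from marrow as lineage-negative cells with c-Kit and Sca-1 on their surface and include blood stem cells and early progenitors. Donor stem cells (CD45.2, C57BL/6) with Cre fused to an oestrogen receptor domain (Cre-ERT) and either wild-type or floxed Ezh2 received a retrovirus carrying RUNX1S291fs, a mutant form of the blood transcription factor RUNX1, or an empty control virus. They were grafted into irradiated mice beside wild-type CD45.1 marrow, and Ezh2, the catalytic subunit of Polycomb repressive complex PRC2, was deleted afterwards.

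Each of the 8 groups was measured on 1 array, so no group had a replicate, and each value below is that of a single array. At month 4 after transplantation, WT cells had the empty virus and intact Ezh2, Ezh2_deleted cells the empty virus and no Ezh2, RUNX1_mutant cells RUNX1S291fs with intact Ezh2, and Double_mutant cells RUNX1S291fs without Ezh2. Double_MDS and Double_MDS_ML were cells with both lesions from a single moribund mouse each, the former with myelodysplastic syndrome (MDS) and the latter with MDS and myeloid leukemia. The remaining groups, CD45.1_in_RUNX1_mutant and CD45.1_in_double_mutant, held the wild-type competitors, without virus or deletion, from recipients of RUNX1_mutant and of Double_mutant cells, also at month 4. Month 4 CD45.2 cells were pooled from 2 to 4 mice. All grafts shared irradiation, transplantation and wild-type competitor marrow.

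Toll-like receptors recognise microbial products and some endogenous ligands. Tlr4 binds lipopolysaccharide together with Ly96 (MD-2), after Lbp and Cd14 have handed it over. Tlr2 pairs with Tlr1 or Tlr6 to read lipopeptides at the cell surface, while Tlr3, Tlr7 and Tlr9 read nucleic acids in endosomes, to which Unc93b1 carries them. All of these except Tlr3 can signal through Myd88 to NF-kappaB. Blood stem and progenitor cells are known to express several of these receptors, and signalling through them is known to push such cells towards myeloid output.

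Levels are log2 processed signal minus the array's 75th percentile, so a level of 0 lies at that percentile. They compare arrays for 1 gene, not genes with each other. The share of probes above background by the scanner's criterion (well above background) was lowest at 43.9% on CD45.1_in_RUNX1_mutant and highest at 55.3% on WT, 0 were saturated, and the 75th percentile of signal ran from 185.7 to 474.3. The sorted markers of LSK cells were present on all 8 arrays. Kit, which encodes c-Kit, lay between 4.06 and 5.11, but Ly6a, which encodes Sca-1, was 0.53 on Double_MDS and 1.18 on Double_MDS_ML against 3.17 to 4.14 on the month 4 arrays. The Ezh2 probe read 3.10 to 3.51 on the 4 arrays with the deletion and 3.40 to 4.01 on the 4 without it. Its place relative to the floxed exons is unknown here, so it does not check the deletion. WT shared a slide with Double_mutant and Double_MDS, both competitor arrays shared another with RUNX1_mutant and Ezh2_deleted, and Double_MDS_ML was alone on its slide.

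**Figure D1:**
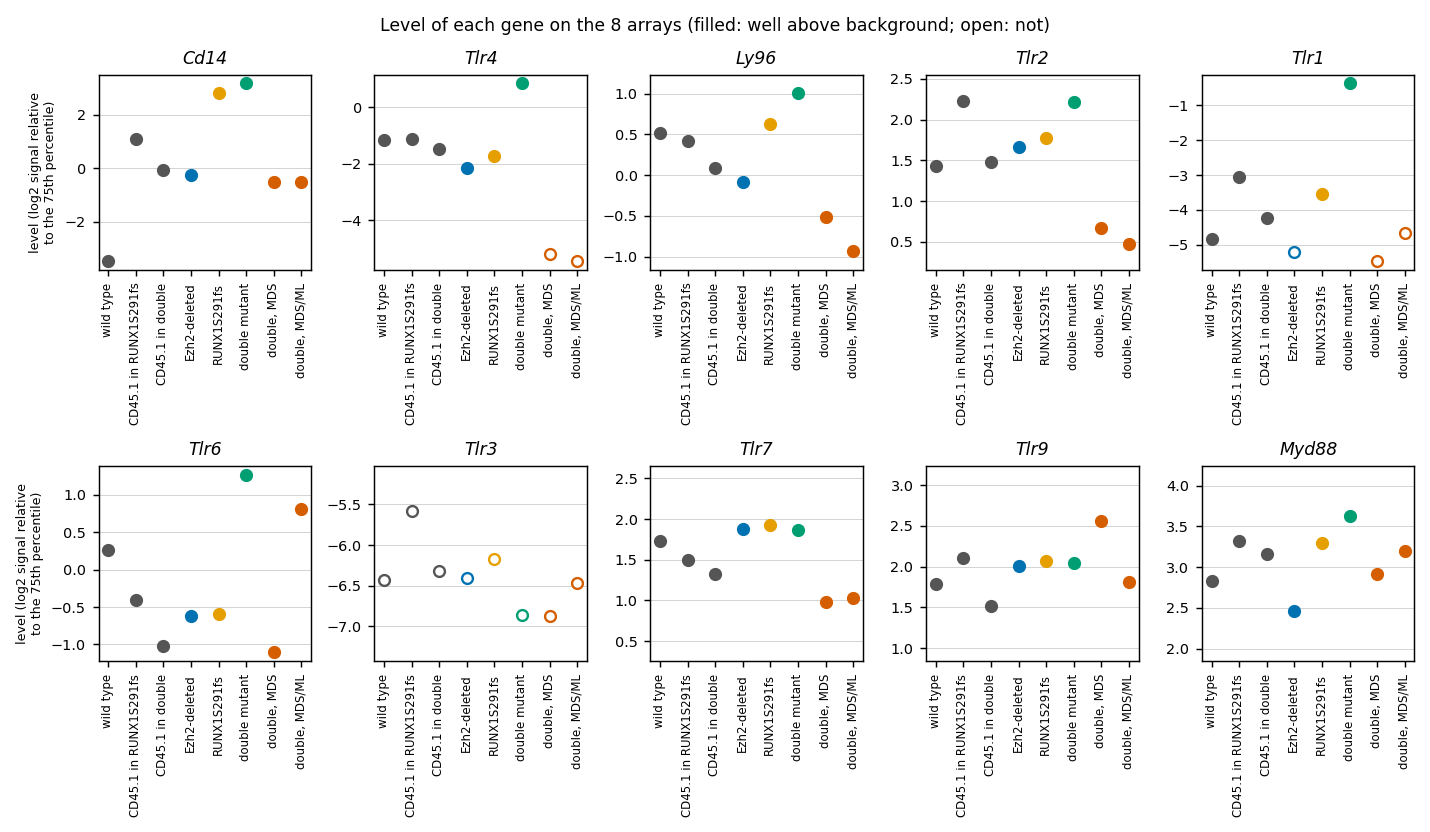
Level (log2 signal relative to the 75th percentile of the array) of the 10 genes on the 8 arrays, 1 point for each array, filled where the probe was well above background and open where it was not; each panel has its own scale. Cd14 is lowest on WT (-3.47), Tlr4 is open on both moribund arrays, Tlr1 and Tlr6 are highest on Double_mutant (-0.37 and 1.27), and Tlr3 is open on all 8.

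Tlr1 and Tlr6 are adjacent protein-coding genes on mouse chromosome 5, and both read highest on Double_mutant. Their promoter sequences are shown because these neighbours share their highest array, where Tlr1 stood 2.68 log2 above the next array and Tlr6 0.46. This is not particular to them, since Tlr4, Cd14, Ly96 and Myd88 also read highest on Double_mutant. RefSeq promoter windows (GRCm38.p6) were held for 6 of the 10 genes. The 250 bases before each start were searched on both strands for the RUNX core TGTGGT, the PU.1 motif GAGGAAGT, a pair of NF-kappaB motifs of 10 letters, and the AP-1 motif TGANTCA. Capitals mark a match in the sequences below, each written 5′ to 3′ on the gene's own strand, the minus strand.
Tlr1 promoter, chr5:64933559-64933808: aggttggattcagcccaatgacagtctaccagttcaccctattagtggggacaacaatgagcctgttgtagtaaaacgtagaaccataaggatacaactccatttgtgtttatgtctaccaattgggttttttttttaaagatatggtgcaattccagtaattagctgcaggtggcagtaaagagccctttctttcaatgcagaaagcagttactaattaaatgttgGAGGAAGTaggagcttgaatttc
Tlr6 promoter, chr5:64959167-64959416: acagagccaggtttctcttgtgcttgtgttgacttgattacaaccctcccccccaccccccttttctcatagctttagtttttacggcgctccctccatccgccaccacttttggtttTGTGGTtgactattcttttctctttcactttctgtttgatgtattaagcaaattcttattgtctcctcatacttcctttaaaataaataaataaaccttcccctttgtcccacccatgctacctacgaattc
The Tlr1 window holds the PU.1 motif 23 bases before the start, as do 2.44% of 32851 RefSeq windows of that length. In the Tlr6 window the RUNX core begins 132 bases before the start, and 14.0% of windows hold it. Both genes have a second annotated start whose window held none of these motifs. In the other windows held, those of Tlr2, Tlr3, Tlr9 and Myd88, a single match was found, an AP-1 motif 58 bases before the start of Tlr9; 6.75% of windows hold that motif. Either NF-kappaB motif is rare at this length (0.140% and 0.0852% of windows), and no window of the set held it. No match overlapped another, and a match is only a run of letters.

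Cd14, the surface protein that delivers lipopolysaccharide to the Tlr4 complex, had the widest span of measured levels in the set, 6.65 log2. That of Tlr4 (6.29) ends on arrays where its probe was not well above background, so the order of these spans is not settled. The level of Cd14 was -3.47 on WT, -0.25 on Ezh2_deleted, 2.82 on RUNX1_mutant and 3.18 on Double_mutant. On the moribund arrays it was -0.51 on Double_MDS and -0.52 on Double_MDS_ML, and on the competitor arrays 1.10 on CD45.1_in_RUNX1_mutant and -0.05 on CD45.1_in_double_mutant. Both month 4 arrays with RUNX1S291fs thus read above all others, while the moribund arrays, which carry RUNX1S291fs too, read below both competitor arrays. Cd14 was 100.4-fold higher on Double_mutant than on WT, but 9.41-fold higher than on CD45.1_in_double_mutant, which was on another slide. RUNX1_mutant exceeded CD45.1_in_RUNX1_mutant by 1.72 log2, 3.30-fold, on the same slide. The 3 wild-type arrays alone spanned 4.57 log2 for Cd14, a wider span than 99.6% of genes tested showed among them, so a difference set against WT contains how low that array was.

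Tlr4, the signalling receptor for lipopolysaccharide, read -1.15 on WT, -2.15 on Ezh2_deleted, -1.73 on RUNX1_mutant and 0.84 on Double_mutant. The competitors gave -1.13 on CD45.1_in_RUNX1_mutant and -1.50 on CD45.1_in_double_mutant. The moribund arrays gave -5.20 on Double_MDS and -5.45 on Double_MDS_ML, where the probe was not well above background. Double_mutant was therefore the highest array, 3.98-fold above WT, while either lesion alone lay below WT (by -1.0 log2 for Ezh2_deleted and -0.58 for RUNX1_mutant). The 3 wild-type arrays lay within 0.37 of each other. Where a probe was dim, the lowest signal that counted as well above background on that array was used in its place, which makes the difference a lower limit. Tlr4 was at least 61.8-fold lower on Double_MDS than on Double_mutant, and at least 11.8-fold lower on the mean of the moribund arrays than on the mean of the 6 month 4 arrays. These limits hold for the processed signal; with normexp background correction, which adds an offset of 50, the first difference was -3.00 log2.

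Ly96, the partner that completes the lipopolysaccharide receptor, moved over a smaller span in a similar order. It read 0.52 on WT, -0.08 on Ezh2_deleted, 0.63 on RUNX1_mutant and 1.01 on Double_mutant. The moribund arrays gave -0.52 (Double_MDS) and -0.94 (Double_MDS_ML), and the competitors 0.42 (RUNX1_mutant marrow) and 0.08 (Double_mutant marrow). As for Tlr4, Double_mutant was highest and the moribund arrays were lowest, with no overlap with the month 4 arrays. Of all genes tested, 17.4% were lower on the moribund arrays without overlap. Over the 8 arrays, Pearson's r between Ly96 and Tlr4 was 0.94, the highest among pairs of members, while r between Cd14 and Tlr4 was 0.37; the points share their 8 arrays and scaling.

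Tlr2, which forms the common chain of both lipopeptide receptors, read 1.43 on WT, 1.67 on Ezh2_deleted, 1.78 on RUNX1_mutant and 2.22 on Double_mutant. It read 2.23 on CD45.1_in_RUNX1_mutant and 1.48 on CD45.1_in_double_mutant, but 0.67 on Double_MDS and 0.48 on Double_MDS_ML. The moribund arrays lay below all 6 month 4 arrays, and the wild-type competitors of RUNX1_mutant cells read as high as Double_mutant cells.

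Tlr1, the chain that lets Tlr2 read triacylated lipopeptides, was well above background on 5 of 8 arrays, at -4.84 on WT, -3.55 on RUNX1_mutant, -0.37 on Double_mutant, -3.05 on CD45.1_in_RUNX1_mutant and -4.22 on CD45.1_in_double_mutant. On Ezh2_deleted (-5.20), Double_MDS (-5.47) and Double_MDS_ML (-4.66) it was not. Double_mutant stood 2.68 log2 above the next array and was 22.1-fold above WT. Against CD45.1_in_double_mutant, on another slide, the difference was 3.85 log2, 14.4-fold.

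Tlr6, the chain for diacylated lipopeptides, was well above background on all 8 arrays. It read 0.27 on WT, -0.62 on Ezh2_deleted, -0.59 on RUNX1_mutant and 1.27 on Double_mutant, and -0.40 and -1.03 on the competitors from RUNX1_mutant and Double_mutant marrow. The moribund arrays parted, with -1.11 on Double_MDS and 0.80 on Double_MDS_ML. Double_mutant was again highest, and Double_MDS_ML came next, 1.91 log2 above Double_MDS; in the other members measured on both moribund arrays the difference between them was under 0.8 in size.

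Among the endosomal receptors, Tlr3, which reads double-stranded RNA, was not well above background on any of the 8 arrays and is given no level. Tlr7, an X-linked receptor for single-stranded RNA, read 1.73 on WT, 1.87 on Ezh2_deleted, 1.93 on RUNX1_mutant and 1.87 on Double_mutant. The competitors read 1.49 in RUNX1_mutant marrow and 1.32 in Double_mutant marrow, and the moribund arrays 0.98 (Double_MDS) and 1.03 (Double_MDS_ML). Both moribund arrays were below all month 4 arrays. The second Tlr7 probe disagreed in size, reading 0.31 on WT, -1.73 on Double_mutant, -4.70 (not well above background) on Double_MDS and -3.57 on Double_MDS_ML. With the mean of both probes the difference between Double_mutant and WT turned from 0.14 to -0.95 and that between RUNX1_mutant and WT from 0.20 to -0.60, so Tlr7 has no settled direction before disease. Ddx3y, a Y-linked gene, was well above background on Ezh2_deleted and Double_MDS_ML alone and Xist was not well above background there. The sex of the donor cells thus differed among arrays, and its part in the values of X-linked Tlr7 was not tested.

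Tlr9, the receptor for unmethylated CpG DNA, read 1.78 on WT, 2.01 on Ezh2_deleted, 2.07 on RUNX1_mutant and 2.05 on Double_mutant. The competitors gave 2.10 (RUNX1_mutant marrow) and 1.51 (Double_mutant marrow), and the moribund arrays 2.56 (Double_MDS) and 1.81 (Double_MDS_ML). Its whole span was 1.05, smaller than the median span of 1.40 over all genes tested, and Double_MDS was its highest array. Myd88, the shared adaptor, read 2.83 on WT, 2.46 on Ezh2_deleted, 3.30 on RUNX1_mutant and 3.63 on Double_mutant. Competitors read 3.32 in RUNX1_mutant marrow and 3.16 in Double_mutant marrow, while Double_MDS gave 2.91 and Double_MDS_ML 3.20. It spanned 1.18, with Ezh2_deleted lowest and Double_mutant highest, and moribund arrays in the middle of the month 4 arrays. The adaptor therefore stayed well above background on the arrays where Tlr4 did not.

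Pairs of arrays were then compared with a 2-fold difference as the measure of size, over genes that were well above background on 1 or both of them. With 1 array on each side there is no test, and pairs share arrays. Between Double_mutant and WT, 4 of the 9 members measured were at least 2-fold higher (Cd14, Tlr1, Tlr4 and Tlr6) and 0 lower, where 10.7% of all genes were higher and 8.08% lower. Between RUNX1_mutant and WT, Cd14 and Tlr1 were higher and 0 lower (2 of 9; 9.0% of genes higher, 6.08% lower). Ezh2_deleted had Cd14 alone higher (1 of 8; 8.06%) and 0 lower (4.02%), with Tlr4 at the edge at -1.0. The median difference of the measured members was 0.80, 0.28 and -0.11 in these comparisons, against 0.11, 0.02 and -0.04 for all genes.

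Between the month 4 arrays with RUNX1S291fs, which were on different slides, the array without Ezh2 read higher in Tlr1, Tlr4 and Tlr6. Cd14 differed little between them. The moribund arrays, with both lesions too, read below RUNX1_mutant in Tlr4, which was not well above background there, and in Cd14. Double_mutant against RUNX1_mutant gave Tlr1 (3.18), Tlr4 (2.57) and Tlr6 (1.86) at least 2-fold higher and 0 lower (3 of 9; 8.28% of genes higher, 8.76% lower), while Cd14 differed by 0.36. Double_mutant against Ezh2_deleted gave 6 of 9 higher and 0 lower, beside 11.1% of genes in each direction. These were Cd14 (3.43), Tlr4 (2.99), Tlr6 (1.89), Myd88 (1.18), Ly96 (1.09) and Tlr1, higher by at least 4.07. Of the whole set, Tlr2, Tlr7 and Tlr9 differed by less than 2-fold in all 5 comparisons among the month 4 CD45.2 arrays described so far.

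Competitor cells gave the comparison within a kind of recipient. Whether mutant and competitor cells came from the same mice is not known here. Double_mutant cells exceeded CD45.1_in_double_mutant cells, on another slide, in Tlr1 (3.85), Cd14 (3.23), Tlr4 (2.34) and Tlr6 (2.29). That made 4 of 9 at least 2-fold higher and 0 lower (10.3% and 9.48% of genes). RUNX1_mutant cells exceeded CD45.1_in_RUNX1_mutant cells in Cd14 alone (1 of 9 higher and 0 lower, 9.23% and 12.5% of genes). WT was on another slide than the competitor arrays, but Ezh2_deleted and RUNX1_mutant were on theirs. On that slide Cd14 of Ezh2_deleted lay 0.20 below CD45.1_in_double_mutant and 1.35 below CD45.1_in_RUNX1_mutant, where against WT it lay 3.22 above. Ezh2_deleted had 0 of 9 members at least 2-fold apart in either direction from CD45.1_in_double_mutant (6.47% of genes higher, 4.08% lower). Against CD45.1_in_RUNX1_mutant it had 0 higher and 3 lower (9.40% and 11.5%), namely Cd14 (-1.35), Tlr4 (-1.02) and Tlr1 (by at least 1.39). RUNX1_mutant against CD45.1_in_double_mutant again had Cd14 alone higher (2.87; 1 of 9 higher and 0 lower, 5.68% and 5.19% of genes). Wild-type cells in a RUNX1_mutant marrow exceeded WT in Cd14 (4.57) and Tlr1 (1.78), 2 of 9 higher and 0 lower (12.2% and 7.62%). Those in a Double_mutant marrow exceeded it in Cd14 (3.41) and lay below it in Tlr6 (-1.29), 1 of 9 each way (4.64% and 2.70%). Set against each other, the competitor arrays differed at least 2-fold in Cd14 (-1.15) and Tlr1 (-1.17), both lower in the Double_mutant marrow, 2 of 9 lower and 0 higher (9.68% and 7.52%). A fit of both mutant arrays against both competitor arrays, with the kind of recipient as a block (2 pairs, 1 residual degree of freedom), was added after seeing the data. All 9 members were positive in it with a median of 0.57, against -0.05 for all genes, but 0 of 9 and 0 of 13555 genes passed (0.00%; limma; 566 genes, 4.18%, had an unadjusted p under 0.05). Cd14 had the largest value there, 2.48 log2 (SE 0.61, adjusted p = 0.453, limma). The pairs behind this fit differed. Double_mutant exceeded its competitor array in 9 of 9 members (median 0.92, against 0.07 for all genes). RUNX1_mutant exceeded its own in 3 of 9 (median -0.04, against -0.15). Both competitor arrays are wild type alike, so they show the size of difference that arrays without either lesion gave.

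**Figure D2:**
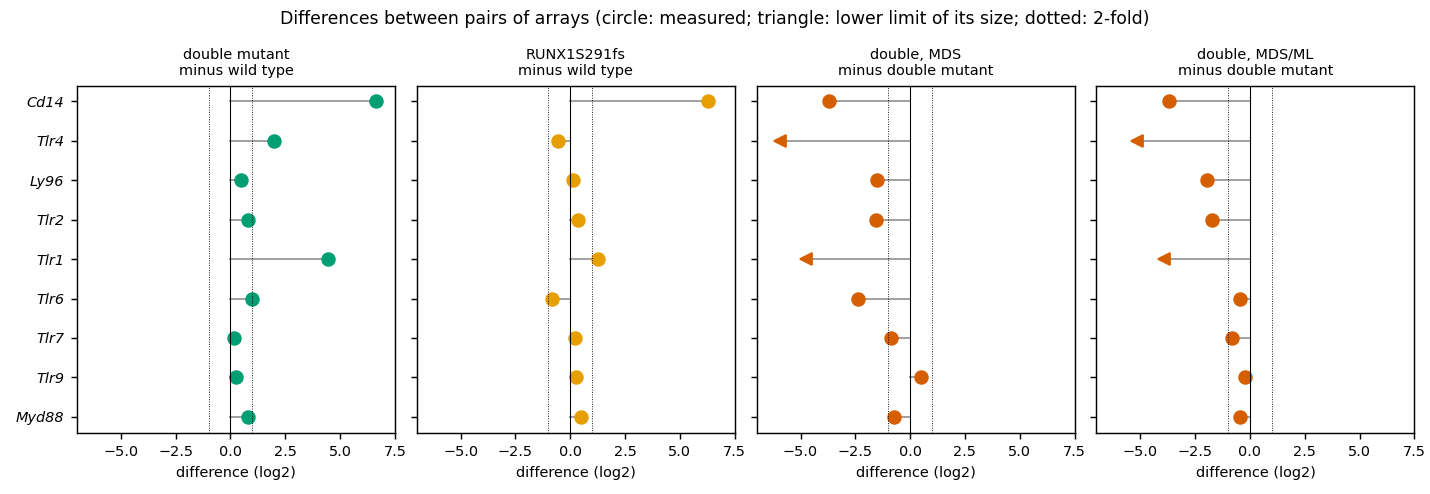
Difference in level (log2) of the 9 measured genes between 4 pairs of arrays; circles are measured differences, triangles lower limits of their size where 1 array was not well above background, and dotted lines mark 2-fold. Cd14 is far right in both comparisons with WT (6.65 and 6.29), Tlr1 and Tlr4 are to the right only for Double_mutant among the genes beyond 1.5, and most points lie to the left for both moribund arrays.

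Both moribund arrays carried the same lesions as Double_mutant, and their members were mostly lower. On Double_MDS, 6 of 9 were at least 2-fold lower than on Double_mutant and 0 higher, beside 20.5% of genes lower and 10.7% higher on the same slide. They were Tlr4 (by at least 5.95), Tlr1 (by at least 4.74), Cd14 (-3.69), Tlr6 (-2.37), Tlr2 (-1.55) and Ly96 (-1.52). On Double_MDS_ML, 5 of 9 were lower and 0 higher (15.4% and 10% of genes): Tlr4 by at least 5.13, Tlr1 by at least 3.92, Cd14 (-3.70), Ly96 (-1.95) and Tlr2 (-1.74). Tlr6 was the exception there at -0.46.

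Against WT in place of Double_mutant the picture was smaller and mixed. Double_MDS lay below WT in Tlr4 (by at least 3.96), Tlr6 (-1.37) and Ly96 (-1.03) and above it in Cd14 (2.96), 3 of 9 lower and 1 higher (17.8% and 13.6% of genes). Double_MDS_ML lay below it in Tlr4 (by at least 3.14) and Ly96 (-1.45) and above it in Cd14 (2.94), 2 of 8 lower and 1 higher (12.0% and 9.47%). Between the moribund arrays, Tlr6 alone differed at least 2-fold (1 of 7 higher on Double_MDS_ML, 0 lower; 11.9% and 9.16%).

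Tests came from an additive model over all 8 arrays with terms for Ezh2 deletion, RUNX1S291fs and moribund stage, fitted with limma to 13555 genes, those well above background on 3 or more arrays. Of the set 9 were tested, and Tlr3 was not. The model's error term had 4 residual degrees of freedom, from differences among wild-type arrays, between the moribund arrays and from non-additive genotypes, so effects are averages over arrays of different kinds. Stage is set against the sum of both lesions, not against Double_mutant alone. Adjusted p-values are Benjamini-Hochberg values over all 13555 genes, with a threshold of 0.05.

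The moribund stage effect on Tlr4 was -5.13 log2 (SE 0.85, adjusted p = 0.034, limma), and Tlr4 was the 1 of 9 members that fell past the threshold, beside 1.84% of genes in either direction and 1.57% that fell (37 higher and 213 lower; 78 and 210 with normexp background correction). The fitted value uses measured signals on arrays where Tlr4 was dim and is no bound. Cd14 (-3.76, SE 1.41, adjusted p = 0.294), Tlr1 (-3.39, SE 1.17, 0.252), Tlr2 (-1.50, SE 0.42, 0.155) and Ly96 (-1.50, SE 0.40, 0.137) did not pass. The remaining effects were -0.99 for Tlr7, -0.79 for Tlr6, -0.28 for Myd88 and 0.07 for Tlr9. In all, 8 of 9 effects were negative with a median of -1.50, against 58.9% of all genes and a median of -0.13, and 6 of 9 had an unadjusted p under 0.05, where 13.7% of genes did. The Tlr4 call was lost without any single one of WT, Double_mutant, Double_MDS, Double_MDS_ML or either CD45.1 array. Its effect was -2.71 (adjusted p = 0.176) without Double_mutant and between -5.25 and -5.00 (adjusted p from 0.0505 to 0.0984) in the other 5 of these fits; over all alternatives its adjusted p ran from 0.0209 to 0.176. Without Ezh2_deleted, or without RUNX1_mutant, Tlr1 passed as well (-4.69, adjusted p = 0.0439), while without Double_mutant its effect was -0.35 and that of Ly96 -0.94. Levels of Tlr2, Tlr4, Tlr7 and Ly96 on the moribund arrays did not overlap those of the 6 month 4 arrays, 4 of 9 lower and 0 higher, beside 17.4% and 10% of genes.

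For RUNX1S291fs, Cd14 had the largest fitted effect of the set, 3.55 log2 (SE 1.15, unadjusted p = 0.018, adjusted p = 0.566, limma), with a 95% interval from 0.83 to 6.27. Tlr1 followed with 2.22 (SE 0.96, adjusted p = 0.861), a value that was 0.49 without Double_mutant or without Ezh2_deleted and 4.83 without RUNX1_mutant. All 9 effects were positive with a median of 0.61, where 54.0% of genes were positive with a median of 0.03, and 0 of 9 passed (0.0148% of genes did). RUNX1_mutant itself lay below the mean of the wild-type arrays in Tlr4 (-1.73 against -1.26) and Tlr6 (-0.59 against -0.39). It lay above that mean in the other members tested. The positive effects on Tlr4 and Tlr6 thus rest on Double_mutant. The 4 carrier arrays, moribund ones included, overlapped the other arrays in all 9 members (4.87% of genes were lower and 3.73% higher without overlap). For Ezh2 deletion, effects ran from -0.26 (Myd88) to 0.60 (Tlr6), 7 of 9 positive with a median of 0.19, where 44.6% of genes were positive with a median of -0.04. Ezh2_deleted itself lay below the mean of the wild-type arrays in Tlr1 (not well above background there), Tlr2, Tlr4, Tlr6, Ly96 and Myd88. It lay above that mean in Tlr7, Tlr9 and Cd14. The positive effects on Tlr1, Tlr2, Tlr4 and Tlr6 thus rest on Double_mutant. None of the 9 passed, nor did any of the 13555 genes (0.00%), of which 321 (2.37%) had an unadjusted p under 0.05. All 9 members overlapped between deleted and other arrays (1.79% of genes were lower and 1.01% higher without overlap).

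The product of both lesions was then added to the model, which asks whether RUNX1S291fs goes with the same difference in the presence and absence of Ezh2. The product term was 4.34 (SE 1.16) for Tlr1, 3.46 (SE 0.60) for Tlr4 and 2.09 (SE 1.31) for Tlr6, all 3 positive because Double_mutant exceeded the sum of the single lesions. Adjusted p was 0.689 for Tlr1 and Tlr4 and 0.839 for Tlr6 (limma), so none passed, and 0 of 13555 genes did (0.00%; 885 with an unadjusted p under 0.05). For Cd14 the term was -0.20 (SE 2.52), with a 95% interval from -6.30 to 5.90. Without the stage term the Tlr4 value turned to -0.65, the moribund arrays then counting as double mutants.

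**Figure D3:**
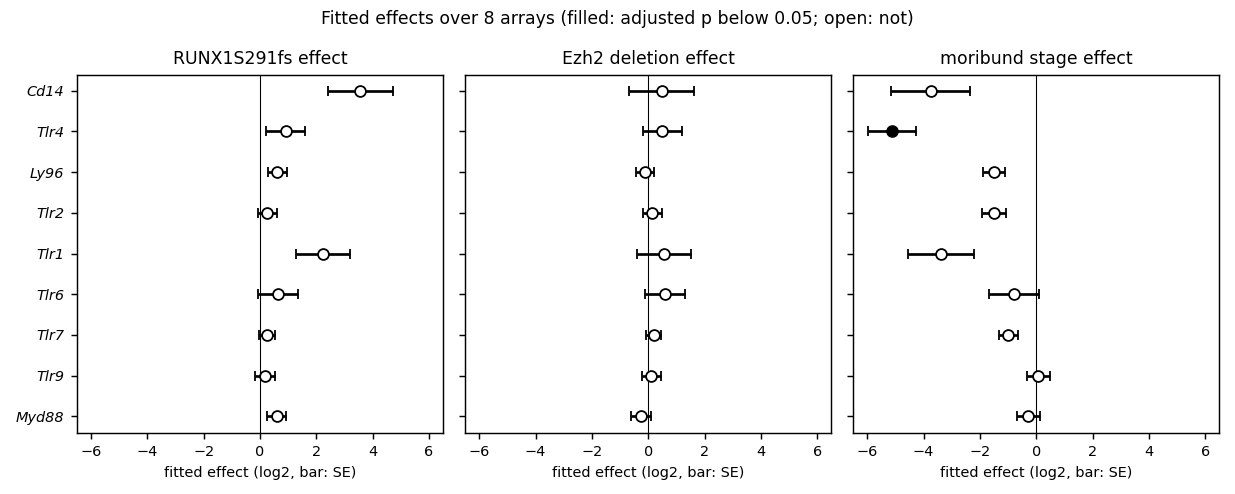
Fitted effects (log2, horizontal axis) of RUNX1S291fs, Ezh2 deletion and moribund stage on the 9 tested genes, from the additive model over 8 arrays; bars are 1 SE to each side, and a filled point has an adjusted p below 0.05. Tlr4 for stage (-5.13, SE 0.85) is the single filled point, and Cd14 lies farthest to the right for RUNX1S291fs (3.55, SE 1.15).

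The other genes of the pathway were taken from lists of co-receptors, adaptors, signalling genes, brakes, targets and sensors. Of 7 co-receptor and trafficking genes 6 were tested, and 1 passed for stage. Unc93b1, which escorts nucleic-acid receptors to the endosome, fell by 3.77 log2 (SE 0.62, adjusted p = 0.033, limma). It read 3.70 on WT, 3.25 on Ezh2_deleted, 3.82 on RUNX1_mutant and 5.05 on Double_mutant. The competitors read 4.60 in RUNX1_mutant marrow and 3.81 in Double_mutant marrow, but the level was 0.63 on Double_MDS and 0.71 on Double_MDS_ML. The moribund arrays lay more than 2 log2 below the lowest of the others, and adjusted p ran from 0.0121 to 0.355 over the alternatives, the highest without Double_mutant, where the effect was -2.36. The call was also lost without WT, Double_MDS, Double_MDS_ML or CD45.1_in_double_mutant. With slide as a block it was lost too (effect -3.97), as it was with no filter on dim probes (-3.77, adjusted p = 0.0575, limma).

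Ly86 (MD-1), the partner of the Tlr4-like receptor Cd180, had a stage effect of -3.57 (SE 1.07, adjusted p = 0.182) and Lbp, the lipopolysaccharide-binding protein, one of -3.11 (SE 0.76, adjusted p = 0.110). On Double_MDS and Double_MDS_ML, Ly86 read -0.39 and -1.35 against 1.51 to 4.58 at month 4, and Lbp -0.05 and -1.18 against 1.12 to 3.27. Neither overlapped the month 4 arrays. Without Double_mutant these stage effects were -1.77 for Ly86 and -1.30 for Lbp. Ly86 passed without CD45.1_in_RUNX1_mutant (-3.82, adjusted p = 0.0495) and Lbp without Ezh2_deleted or without RUNX1_mutant (-3.89, adjusted p = 0.0356). Cd180 went the other way, at -1.03 on Double_MDS and -0.28 on Double_MDS_ML against -3.66 (not well above background) to -2.20 at month 4, with a stage effect of 1.70 (SE 0.41, adjusted p = 0.110). All 4 carriers of RUNX1S291fs read above the 4 other arrays for Cd180, with a RUNX1S291fs effect of 1.11 (SE 0.34, adjusted p = 0.492, limma). Such a split without overlap was found for 3.73% of all genes, and 4.87% were lower on the carriers.

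Of 5 further receptors, Tlr12 and Tlr13 were tested and 0 passed in any term. Tlr12, known in mice as a sensor of protozoan profilin, read 2.94 on WT, 0.73 on Ezh2_deleted, 2.97 on RUNX1_mutant and 1.90 on Double_mutant. The competitors read 2.88 in RUNX1_mutant marrow and 3.28 in Double_mutant marrow, and the moribund arrays -0.44 (Double_MDS) and -0.15 (Double_MDS_ML). All 4 arrays with Ezh2 deleted lay below all 4 with it intact, with an Ezh2 deletion effect of -1.81 (SE 0.36, adjusted p = 1.00) and a stage effect of -1.82 (SE 0.44, adjusted p = 0.109). The former was -1.07 without Ezh2_deleted and the latter -0.96 without Double_mutant. Without overlap, 1.79% of all genes were lower and 1.01% higher on the arrays with Ezh2 deleted. Tlr13, a receptor for bacterial ribosomal RNA, stayed between -1.25 and -0.00.

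**Figure D4:**
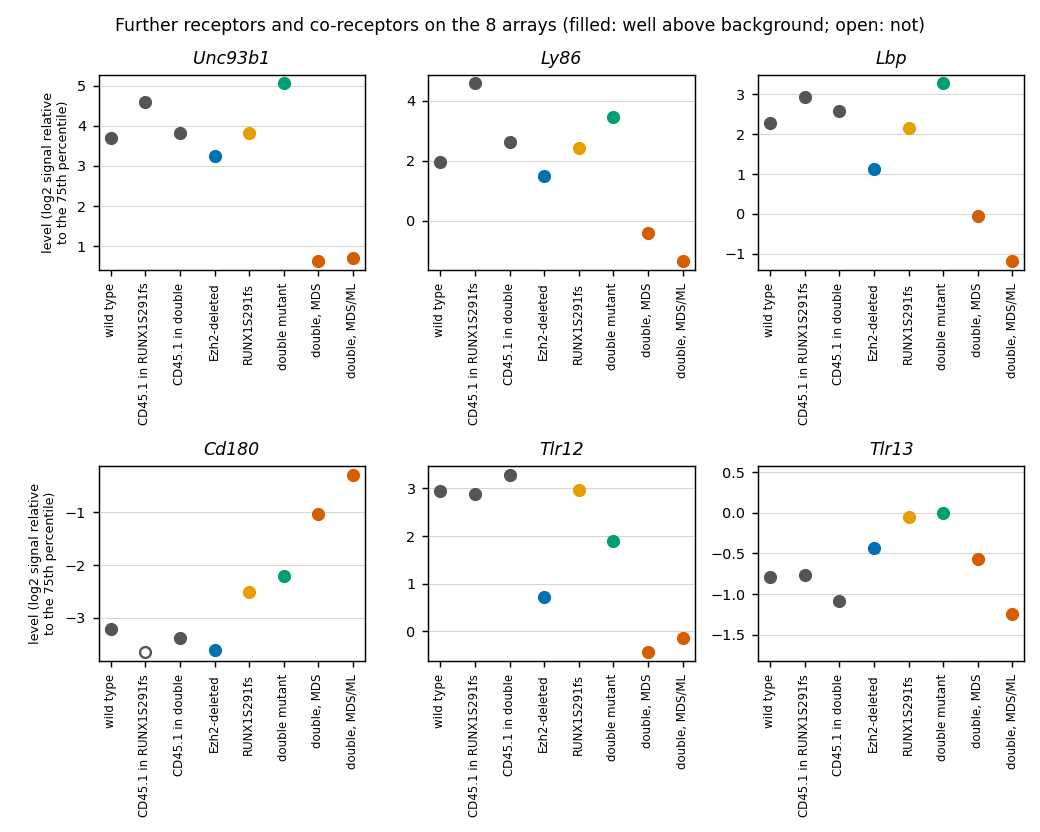
Level (log2 signal relative to the 75th percentile of the array) of 6 further receptors and co-receptors on the 8 arrays, filled where well above background and open where not, each panel on its own scale. Unc93b1, Ly86 and Lbp are lowest on both moribund arrays, Cd180 is highest there, and Tlr12 is lower on the 4 arrays with Ezh2 deleted.

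No adaptor or signalling gene passed the threshold. Of 4 other adaptors 3 were tested and 0 passed for any term; the largest stage effect was that of Ticam2, the bridge from Tlr4 to the interferon branch, at -1.14 (SE 0.52, adjusted p = 0.401). All 22 downstream signalling genes were tested and 0 passed, with a median stage effect of -0.17 against -0.13 for all genes. Between single arrays, 7 of 22 were at least 2-fold lower on Double_MDS than on WT and 0 higher, beside 17.8% and 13.6% of genes. Against Double_mutant 5 of 22 were lower there and 0 higher, beside 20.5% and 10.7% of genes. The largest stage effects were -2.62 for Ikbke, a kinase of the interferon branch, and -1.51 for Irf5, a transcription factor that acts after Myd88. Of 10 brakes on the pathway 0 passed; Socs1, which restrains cytokine and Toll-like receptor signalling, had the largest stage effect at -1.51 (SE 0.36, adjusted p = 0.105).

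Target genes differed between the moribund arrays. Of 12 listed, 10 were tested and 0 passed for any term. Ccl3, a macrophage chemokine, had the largest stage effect, -4.17 (SE 0.79, adjusted p = 0.055), at -0.73 on Double_MDS and -3.14 on Double_MDS_ML against 2.28 to 4.83 at month 4. It passed without Double_MDS (-5.38, adjusted p = 0.0282) and without Double_MDS_ML (-2.97, 0.0301). As many as 6 of 10 targets were at least 2-fold higher on Double_MDS than on Double_mutant and 1 lower, beside 10.7% and 20.5% of genes. Their median there was 2.25 against -0.23 for all genes. On Double_MDS_ML 0 were higher and 7 lower, beside the shares of genes given above for the members in that pair. The median there was -1.57, the direction of the members on that array. Between the moribund arrays all 10 were at least 2-fold lower on Double_MDS_ML, beside 9.16% of genes lower and 11.9% higher. Single-lesion arrays differed from Double_mutant too. Against WT, 6 of 10 targets were at least 2-fold higher and 1 lower on RUNX1_mutant (9.0% and 6.08% of genes). On Ezh2_deleted 6 were higher and 0 lower (8.06% and 4.02%). On Double_mutant, the array with the highest Tlr4, Tlr1, Tlr6 and Myd88, 2 were higher and 4 lower (10.7% and 8.08%). Early response genes, which rise within minutes in handled cells, differed between arrays as well. Their summed level (log2) was 11.54 on RUNX1_mutant, 11.45 on Double_MDS and 10.22 on Ezh2_deleted against 8.91 on Double_mutant, 9.30 on WT and 9.80 on Double_MDS_ML. For the competitors it was 10.75 in Double_mutant marrow, above Ezh2_deleted, and 10.09 in RUNX1_mutant marrow. The part of early response genes in the target genes' values was not tested.

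Markers of other marrow cells also differed between arrays. All 8 monocyte and macrophage markers with a probe had a negative stage effect (0 passed), and their summed level was 3.70 on Double_MDS and 2.95 on Double_MDS_ML against 4.59 to 6.69 at month 4, highest on Double_mutant. The wild-type array CD45.1_in_RUNX1_mutant came close at 6.54. On it Tlr2 read as on Double_mutant (2.23 and 2.22), but Tlr1 (-3.05 and -0.37), Tlr4 (-1.13 and 0.84) and Tlr6 (-0.40 and 1.27) read lower. Mast cell and basophil markers summed to 7.10 on RUNX1_mutant and 7.49 on Double_mutant against 2.84 on WT, 3.15 on Ezh2_deleted, 4.99 on CD45.1_in_RUNX1_mutant and 3.91 on CD45.1_in_double_mutant. Their sum also reached 8.59 on Double_MDS and 6.86 on Double_MDS_ML, where Cd14 was lower, but Cpa3 alone read 6.85 to 8.47 there. Against Double_mutant, 4 of 7 markers were at least 2-fold lower on Double_MDS and 2 higher (median -2.76). On Double_MDS_ML 5 were lower and 0 higher (median -6.21). Stage effects were negative for 6 of 7 and positive for 1 (median -2.39, 0 passed). Mcpt4, Cma1 and Ms4a2, mast cell proteases and an IgE receptor chain, were not well above background on WT or Ezh2_deleted. Neither were Mcpt4 and Cma1 on Double_MDS_ML, nor Ms4a2 on Double_MDS and both competitor arrays. Neutrophil markers summed to 10.52 on Double_mutant, 9.72 on Double_MDS and 8.72 on Ezh2_deleted but 1.71 on Double_MDS_ML. All 9 had a negative stage effect with a median of -4.27 (0 passed). B cell markers summed to 8.16 on Ezh2_deleted, 4.17 on Double_mutant and 4.11 on WT. In the same order, dendritic cell markers gave 8.09, 8.40 and 8.44, and T and NK cell markers 6.24, 4.62 and 6.24. None of these lists had a gene past the threshold for stage. Of the LSK and stem cell markers, 7 of 9 had a negative stage effect and 2 a positive one. Past the threshold, 4 fell (Cd34, Flt3, Ly6a and Procr) and 0 rose, beside 1.57% and 0.273% of genes (limma). In RNA from a mixed sort, fewer cells of a type and less RNA per cell cannot be told apart, and the part of these cell types in the members' values was not tested.

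**Figure D5:**
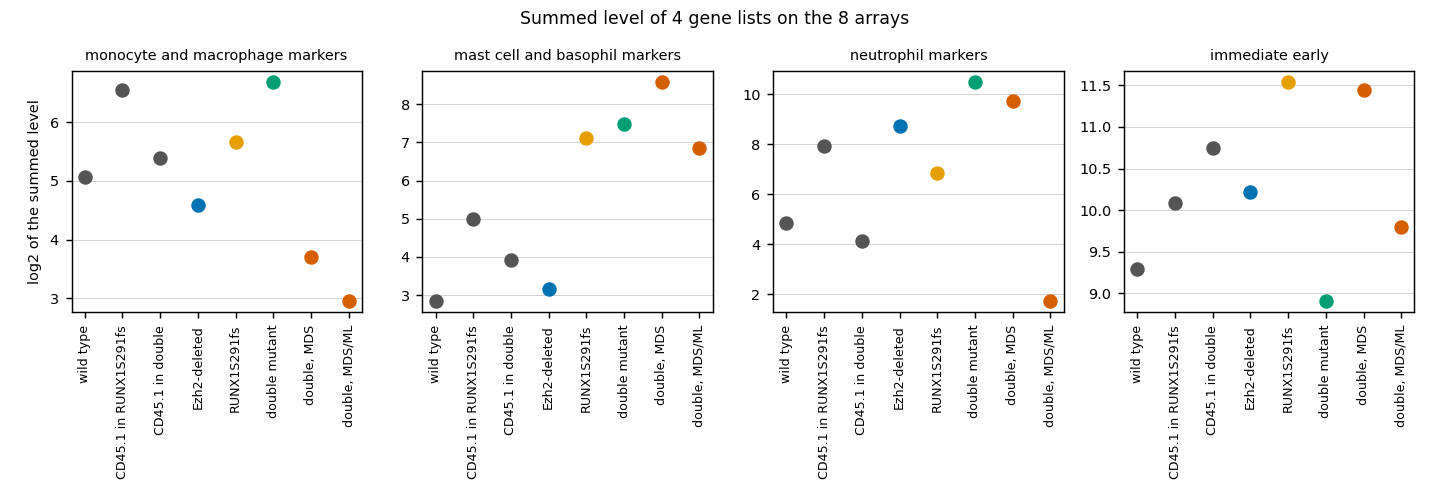
Log2 of the summed level of 4 gene lists on the 8 arrays, 1 point for each array; axes differ between panels. Monocyte and macrophage markers are highest on Double_mutant (6.69), closely followed by CD45.1_in_RUNX1_mutant (6.54), and lowest on Double_MDS_ML (2.95). Neutrophil markers run from 1.71 on Double_MDS_ML to 10.52 on Double_mutant.

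Genes with the most similar pattern were sought by Pearson's r over the 8 arrays among 6095 or 6096 genes that varied, as a description. Tlr4 was most like Plxnd1 (r = 0.996), a semaphorin receptor, followed by Fbp1, an enzyme of gluconeogenesis, and Rab34 (both r = 0.99). Cd14 was most like Mcpt4 (r = 0.94), a mast cell protease that read 2.65 on RUNX1_mutant and 2.92 on Double_mutant and was not well above background on WT, Ezh2_deleted or Double_MDS_ML. Ly96 was most like Retsat (r = 0.97), a retinol saturase, and Hk3, a myeloid hexokinase, came close (r = 0.96). Tlr1 was most like Tom1 (r = 0.99), Tlr2 like Got1 (r = 0.98), Tlr6 like Slc5a11 (r = 0.91), Tlr7 like Rab19 (r = 0.96), Tlr9 like Meis3 (r = 0.96) and Myd88 like Tex2 (r = 0.94). Of the members themselves, Tlr4 was next most like Tlr2 (r = 0.92) after Ly96, while Tlr9 ran slightly against Tlr4 (r = -0.29).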

How the data were processed

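RNA from 8 sorted LSK samples was hybridised to Agilent one-colour mouse arrays, 1 for each group. Per the labels' protocols, 20 ng of total RNA was amplified and labelled with Cy3. Arrays (design 028005) were quantified by Agilent Feature Extraction 10.7.1.1, per the file headers, which gives an intensity corrected for background and for trends across the slide, without scaling of arrays to each other. The authors' deposited table of signal proved to be linear: its 8 columns matched the scanner's processed values after a single scale factor per array (100% of probes within 0.01 log2), with genes not centred, and it served as an alternative.

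Spots of a probe were averaged without control spots and outliers, the 75th percentile of the array was subtracted on the log2 scale, and probes were named through transcript accessions in the RefSeq gene table of GRCm38.p6 (27235 of 55681 probes). The additive and product fits used limma 3.58.1 in R 4.3.3 on genes with a signal well above background on 3 arrays or more, and recovery of known changes was tested on simulated data. A count of calls uses a Benjamini-Hochberg adjusted p under 0.05. P-values measure the spread between single arrays. For pairs, a probe that was dim on 1 array was given that array's lowest signal among probes well above background, so the difference is a bound. The members and the 17 gene lists (154 genes, 150 with a probe) were chosen with earlier results of these data known. From each list the text names up to 3 genes with the largest value for an effect or pair, and any past the threshold; Kit, Ddx3y, Xist and the markers Cma1 and Ms4a2 were named as checks. Alternatives were quantile scaling, normexp background correction (offset 50), the deposited table, other filters on dim probes, the mean of all probes, slide as a block, a term for CD45.1 cells, no stage term, month 4 arrays only, measured values in place of floors, and each array left out. A fit with the kind of recipient as a block was also added after seeing the data. Normexp used the median spot signal and was chosen after seeing the data, since the mean signal was not used here. The number of arrays limits the precision.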

Additional observations from a re-analysis of the deposited data

Results flagged for a closer look

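For 7 pathway genes RUNX1S291fs went with opposite differences, each at least 2-fold, when Ezh2 was intact (RUNX1_mutant minus WT) and when it was deleted (Double_mutant minus Ezh2_deleted). These are differences between single arrays and were not tested as such. The product term of the fit, given beside them, asks a related question. It takes the competitor arrays together with WT as wild type, and it does not test for opposite signs. Tnfaip3, a deubiquitinase that restrains NF-kappaB, differed by 3.03 and -1.37 (product -3.67, SE 2.33, adjusted p = 0.840, limma). Nfkbia, the NF-kappaB inhibitor, differed by 1.76 and -2.61 (product adjusted p = 0.764). Zc3h12a, an RNase that degrades cytokine messages, differed by 1.89 and -2.61 (0.776). Among targets, Tnf differed by 1.69 and -3.60 (0.839) and the chemokines Cxcl2 by 4.21 and -1.98 (0.833), Cxcl10 by 2.18 and -1.56 (0.797) and Ccl4 by 1.05 and -1.06 (0.839). None of the 7 product terms passed, so the differences are not shown to depend on Ezh2. No member of the receptor set showed such opposite signs at this size. Of the 12 early response genes, 7 did (Fosb, Junb, Atf3, Ier2, Ier3, Nr4a1 and Klf6), as did 5 genes of the lists of cell type markers. The share of all genes with such opposite differences is not given here. These counts, and the absence among members, therefore cannot be set against it.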

How the results depend on the processing

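No paired analysis was possible by replicate number, because every sample carries the number 1; pairing mutant with competitor arrays by kind of recipient called 0 genes with that block and 0 without it (limma; 566 and 635 with an unadjusted p under 0.05). RUNX1S291fs called 2 genes (none a member), against 5 with quantile scaling, 1 with normexp or the mean of probes, 0 with only genes well above background on all 8 arrays, with no filter, with a slide block or with a CD45.1 term, 9 without a stage term and 4 with month 4 arrays only, and 0 to 10 when 1 array was left out. Stage called 250 genes, against 151 on all 8 arrays, 149 with no filter and 70 with the slide block, and 0 to 381 when 1 array was left out (0 without Double_mutant). Of members it called 1, against 0 with normexp, the stricter filter (which leaves Tlr4 untested), no filter, the slide block or the CD45.1 term, and 0 to 2 when 1 array was left out. Tlr4 itself gave -2.28 (adjusted p = 0.0946) with normexp and -5.50 (0.0792) with the slide block. Product terms reversed without the stage term, to -0.65 for Tlr4, -0.0063 for Lbp and -0.90 for Unc93b1, since moribund arrays then counted as double mutants; quantile scaling moved the median of all genes for that term from 0.22 to 0.07. Among pairs, members at least 2-fold higher on RUNX1_mutant than WT went from 2 to 1 with normexp, those lower on Ezh2_deleted than WT from 0 to 1 with quantile scaling or the deposited table, and those lower on CD45.1_in_double_mutant than CD45.1_in_RUNX1_mutant from 2 to 1 with quantile scaling and 0 with normexp. Other causes were not tested. Normexp, with its offset, also brought the Tlr1 difference between Double_mutant and WT from 4.46 to 2.55. The remaining values of single genes and pairs mostly kept their direction and side of the threshold (228 of 242 fitted values and 619 of 654 pair values under alternatives other than leaving out an array). The product fit could not be made without Ezh2_deleted, RUNX1_mutant or Double_mutant. Signal over background limits Tlr1, Tlr3 and Tlr4.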
